A study of Homo sapiens with 4 samples.

Results

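Mitochondrial ribosomal proteins are encoded in the nucleus, made in the cytosol and imported into mitochondria, where they assemble with the small and large ribosomal RNA of the mitochondrial genome. The finished ribosome translates only the proteins that the mitochondrial genome encodes, which are core subunits of the respiratory chain and of ATP synthase. Some of the proteins descend from bacterial ribosomal proteins, and others have no bacterial counterpart and are specific to mitochondria. The genes were taken by name and annotation alone: protein-coding entries of the deposited table called MRPL or MRPS with a number and, at most, a letter A to C. This gave 78 genes of 58735 in the table, of which 19951 are protein-coding. They lie on 21 chromosomes.

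RNA was sequenced from cells labelled HFL1, the name of an established line of human fetal lung fibroblasts, in 4 libraries: 2 labelled WT (WT 1 and WT 2) and 2 labelled KO (KO 1 and KO 2). The series' design text speaks of knockout or knockdown of calumenin, a protein that binds calcium and is encoded by CALU, in a study of senescence and fibrosis signalling. No treatment, time point or second genotype separates the groups, and the labels do not say whether the KO cells are 1 clone or whether libraries of a group were cultured separately. All p-values below therefore rest on the spread between 2 libraries a group, and that spread may be technical.

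CALU stood at 87.7 and 81.8 FPKM in WT 1 and WT 2 and 6.59 and 5.95 FPKM in KO 1 and KO 2, lower in both libraries labelled KO (13.5-fold lower, log2 change -3.56, SE 0.14, limma adjusted p = 0.00154). The libraries held 16173899 to 17715774 reads, recovered as whole numbers from the deposited FPKM (fragments scaled to gene length and library depth), and 0.273% to 0.342% of them fell on the 78 genes. Of 10 fibroblast markers, 8 never reached 1 FPKM, 2 of them (COL1A2 and POSTN) at 0, and the summed level of all 10 was 2.24 to 5.40 FPKM. The 6 epithelial markers each reached it in some library, and their sums were 706 and 813 FPKM in WT and 1530 and 1760 FPKM in KO. In WT as in KO the markers therefore go against the labelled cell type, and the cells are called by their label only. All 5 endothelial and 4 of 5 leukocyte markers were also under that level throughout. The sum of the leukocyte list was 17.9 to 20.3 FPKM in WT and 6.24 to 6.64 FPKM in KO, nearly all of it CD14. Of 8 cell division genes, 8 rose, with sums of 33.2 and 56.3 FPKM in WT and 374 and 331 FPKM in KO. The part of these differences in the results below was not tested. In RNA from whole cultures, fewer cells of a type and less RNA per cell cannot be told apart.

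Of the 78 genes, 77 reached 1 FPKM in at least 2 libraries and were tested, with limma on log2(FPKM + 1) over all 14100 genes that did so. MRPS24, a small subunit protein with a bacterial homologue, stayed below that level at 0.231 and 0.304 FPKM in WT 1 and WT 2 and 0.175 and 0.0467 FPKM in KO 1 and KO 2, which is 34 reads in all, and was not tested. It shares 606 exon bases with the readthrough gene URGCP-MRPS24, which was listed at 0 in every library, so its level is uncertain where counting could split or drop shared reads. In all, 41 of the 78 genes share exon bases with another gene, 16 of them with one on the same strand, and their levels are uncertain in the same way.

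The levels, in FPKM and so per length, ranged from 1.09 to 76.5 as means over the 4 libraries among the tested genes. MRPS34, a mitochondria-specific small subunit protein linked to inherited disease of mitochondrial translation, was the most abundant at 51.8 and 56.6 FPKM in WT 1 and WT 2 and 78.6 and 119 FPKM in KO 1 and KO 2. MRPS35, also mitochondria-specific, followed at 57.2 and 50.6 FPKM in WT 1 and WT 2 and 59.9 and 54.4 FPKM in KO 1 and KO 2. MRPS12, a protein of the decoding centre, stood at 53.2 and 62.9 FPKM in WT 1 and WT 2 and 43.4 and 61.9 FPKM in KO 1 and KO 2. MRPS34 and MRPS35 overlapped in WT but not in KO. MRPS26, a mitochondria-specific small subunit protein, stood at 44.0 and 52.6 FPKM in WT 1 and WT 2 and 40.9 and 71.8 FPKM in KO 1 and KO 2. MRPL51, a mitochondria-specific large subunit protein, stood at 34.1 and 51.3 FPKM in WT 1 and WT 2 and 37.5 and 64.2 FPKM in KO 1 and KO 2. In KO the libraries of MRPS35, MRPS12, MRPS26 and MRPL51 overlapped, so the order among these 4 was not larger than their spread. In WT both libraries of MRPS12 lay above both of MRPS26 and both of MRPL51, and the other pairs overlapped. At the low end, MRPL53 stood at 3.71 and 2.32 FPKM in WT 1 and WT 2 and 2.97 and 2.45 FPKM in KO 1 and KO 2. MRPS18C, a small subunit paralogue, stood at 1.18 and 1.59 FPKM in WT 1 and WT 2 and 1.60 and 2.31 FPKM in KO 1 and KO 2. Among the lowest were also 2 mitochondria-specific large subunit genes. MRPL46 stood at 1.39 and 1.93 FPKM in WT 1 and WT 2 and 1.22 and 1.35 FPKM in KO 1 and KO 2. MRPL38 stood at 1.05 and 1.68 FPKM in WT 1 and WT 2 and 0.701 and 0.916 FPKM in KO 1 and KO 2. MRPL53 lay above the other 3 in every library. MRPS18C and MRPL46 overlapped in WT, while in KO both libraries of MRPS18C lay above both of MRPL46.

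Most mitochondrial ribosomal protein genes did not pass the test between KO and WT. Of the 77 tested, 6 rose (7.79%) and 3 fell (3.9%) at a Benjamini-Hochberg adjusted p under 0.05 over all genes tested, and 68 did not pass (88.3%). Over all 14100 genes 12.1% rose and 11.1% fell, and over the 11504 protein-coding genes 12.9% rose and 11.1% fell. In the analysis reported, both shares of the 77 genes lay below these, as counts and without a test of the list. Neither share lay below that of all genes under every alternative. Their median log2 change was 0.08 (quartiles -0.14 and 0.31, range -1.15 to 1.18), beside 0.03 over all genes tested. Both KO libraries lay above both WT libraries for 19 genes (24.7%), against 34.4% of all genes, and below both for 12 (15.6%), against 31.3%. For 46 genes (59.7%) the groups overlapped. The 95% confidence interval of the log2 change lay within 1 log2 unit of no change for 59 genes (76.6%), against 68.5% of all genes.

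**Figure D1:**
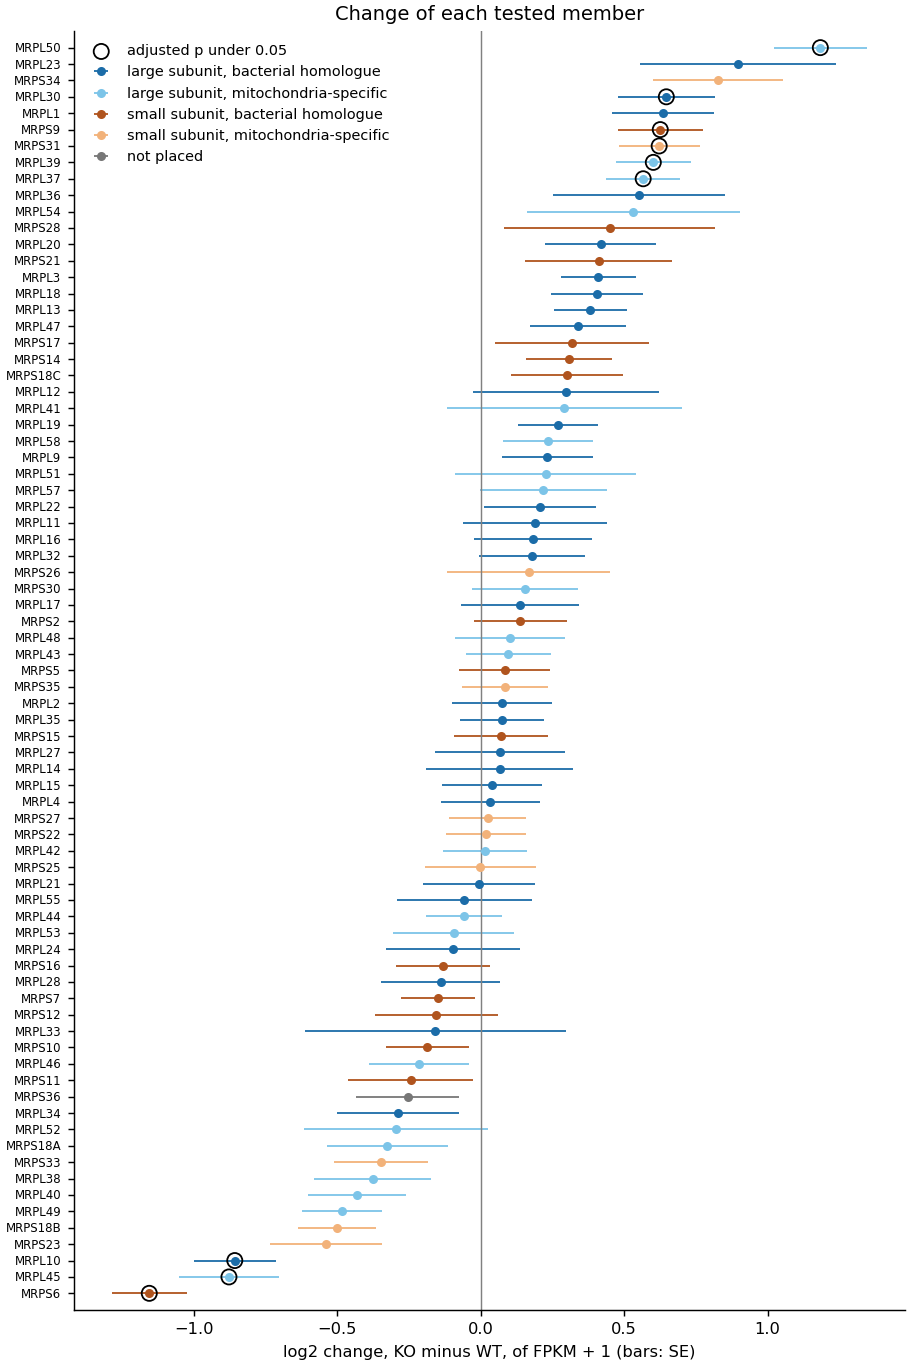
Log2 change from WT to KO of FPKM + 1 (horizontal axis) for each of the 77 tested mitochondrial ribosomal protein genes (rows), coloured by subunit and origin; points are the fitted change, bars its standard error, and open rings the 9 genes with an adjusted p under 0.05. Most points lie close to 0, with MRPL50 at 1.18 and MRPS6 at -1.15 at the ends.

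Among the genes that rose, MRPL50 (ENSG00000136897, chr9:101387633-101398614, minus strand, GRCh38), a mitochondria-specific protein of the large subunit, changed most. It stood at 3.09 and 3.59 FPKM in WT 1 and WT 2 and 7.87 and 9.93 FPKM in KO 1 and KO 2. Both KO libraries were well above either WT library, and the mean went from 3.34 ± 0.352 to 8.90 ± 1.46 FPKM (SD, n = 2 per group), 2.66-fold higher (log2 change 1.18, SE 0.16, limma adjusted p = 0.00898). The call was kept in 12 of 14 alternative analyses and lost without WT 1 (adjusted p = 0.0541) and without the filter on low values (adjusted p = 0.0579; range over alternatives 0.00103 to 0.0579).

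MRPL37 (ENSG00000116221, chr1:54184041-54225464, plus strand) and MRPL39 (ENSG00000154719, chr21:25585656-25607517, minus strand), both mitochondria-specific proteins of the large subunit, rose with little spread between libraries. MRPL37 stood at 18.4 and 18.8 FPKM in WT 1 and WT 2 and 28.3 and 27.8 FPKM in KO 1 and KO 2 (1.51-fold higher, log2 change 0.57, SE 0.13, limma adjusted p = 0.0313). MRPL39, which is related in sequence to threonyl-tRNA synthetase, stood at 9.32 and 8.60 FPKM in WT 1 and WT 2 and 13.7 and 14.6 FPKM in KO 1 and KO 2 (1.57-fold higher, log2 change 0.60, SE 0.13, limma adjusted p = 0.0283). In both genes the libraries of a group lay closer to each other than to the other group. MRPL30 (ENSG00000185414, chr2:99181079-99197626, plus strand), a large subunit protein with a bacterial homologue, stood at 5.22 and 5.28 FPKM in WT 1 and WT 2 and 10.2 and 7.58 FPKM in KO 1 and KO 2. Its KO libraries were further apart than those of MRPL37, and its call was the closest to the threshold (1.69-fold higher, log2 change 0.65, SE 0.17, limma adjusted p = 0.0454).

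In the small subunit, MRPS9 (ENSG00000135972, chr2:105037983-105099960, plus strand), whose bacterial homologue sits in the head of the subunit, stood at 6.38 and 6.05 FPKM in WT 1 and WT 2 and 11.2 and 9.18 FPKM in KO 1 and KO 2 (1.64-fold higher, log2 change 0.63, SE 0.15, limma adjusted p = 0.0349). MRPS31 (ENSG00000102738, chr13:40729135-40771173, minus strand), which is mitochondria-specific, stood at 4.75 and 4.22 FPKM in WT 1 and WT 2 and 6.94 and 7.96 FPKM in KO 1 and KO 2 (1.66-fold higher, log2 change 0.62, SE 0.14, limma adjusted p = 0.0317). Both KO libraries lay above both WT libraries in each.

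The genes that fell were MRPS6, MRPL10 and MRPL45. MRPS6 (ENSG00000243927, chr21:34073224-34143034, plus strand), a small subunit protein with a bacterial homologue, stood at 13.9 and 12.6 FPKM in WT 1 and WT 2 and 5.33 and 5.47 FPKM in KO 1 and KO 2. The KO libraries nearly coincided and lay well under both WT libraries, and the mean went from 13.3 ± 0.977 to 5.40 ± 0.0989 FPKM (SD, n = 2 per group), 2.46-fold lower (log2 change -1.15, SE 0.13, limma adjusted p = 0.00584). It passed in all 14 alternative analyses (adjusted p 0.000609 to 0.0490). MRPS6 shares 273 exon bases on the same strand with SLC5A3, a myo-inositol transporter gene, which was chosen after its values were seen. SLC5A3 also fell, from 13.9 and 11.0 FPKM to 4.78 and 2.98 FPKM (3.21-fold lower, log2 change -1.48, SE 0.22, limma adjusted p = 0.0116). How reads in the shared bases were counted is not given in the sources used here, so the split between both genes is uncertain.

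MRPL10 (ENSG00000159111, chr17:47823272-47831534, minus strand) holds the flexible stalk of MRPL12 copies that recruits translation factors to the large subunit. It stood at 33.9 and 30.5 FPKM in WT 1 and WT 2 and 16.3 and 18.3 FPKM in KO 1 and KO 2 (1.86-fold lower, log2 change -0.86, SE 0.14, limma adjusted p = 0.0145). MRPL45 (ENSG00000278845, chr17:38297023-38323218, plus strand) anchors the ribosome to the inner membrane at the exit of the peptide tunnel. It stood at 54.2 and 44.0 FPKM in WT 1 and WT 2 and 28.5 and 24.0 FPKM in KO 1 and KO 2 (1.87-fold lower, log2 change -0.88, SE 0.17, limma adjusted p = 0.0219), and both KO libraries were below both WT libraries. A transcribed copy, MRPL45P2, fell too, at 3.84 and 3.78 FPKM in WT against 2.10 and 2.24 FPKM in KO (log2 change -0.60, SE 0.13, limma adjusted p = 0.0296), and reads could be shared between near-identical copies. MRPL45P2 was the only 1 of 75 pseudogene entries of these genes to reach 1 FPKM, and 53 had no reads.

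**Figure D2:**
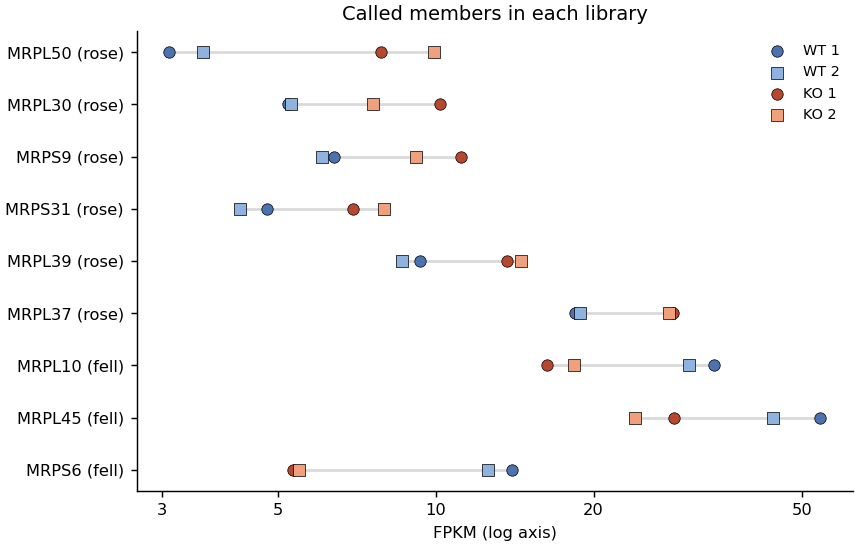
FPKM on a log axis (horizontal) of the 9 genes past the threshold (rows) in each library; circles are replicate 1, squares replicate 2, blue WT and red KO, and grey lines span the 4 values. In each row the blue and the red points do not overlap, with the widest gap in MRPL50 (3.09 and 3.59 against 7.87 and 9.93) and MRPS6 (13.9 and 12.6 against 5.33 and 5.47).

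The starts of many of these genes share short sequence motifs. RefSeq promoter windows (GRCh38.p14, 250 bases before to 50 after the start, 1 window a gene) matched 69 of the 78 genes. Of these, 46 held at least 1 of 4 motifs looked up on both strands, and 23 held none. The count with any of the 4 was not made over all windows, so the 46 have no background share beside them. CCGGAAG, the core bound by ETS factors such as GABP, was in 29 windows (42.0%), against 10.7% of all 27305 windows and 19.9% of windows of tested protein-coding genes. AAGATGGCG, the YY1 motif that can include a start codon, was in 13 (18.8%), against 1.85% and 4.21%. GCGCANGCG, bound by NRF1 (nuclear respiratory factor), was in 13 (18.8%), against 8.05% and 15.6%. CACGTG, the E-box bound by MYC among others, was in 6 (8.70%), against 7.43% and 10.3%. A match describes these letters and is not evidence of binding, and a window without a match says nothing of the factor.

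In 10 of the 13 windows with the YY1 motif, a match began after the start of the gene, and in all 10 it read in the direction of transcription. These 10 stretches are shown, 30 bases each, because most matches stood close to the start, with the motif in capitals.
MRPL22, chr5:154941093-154941122, plus strand: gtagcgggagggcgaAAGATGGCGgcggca
MRPL38, chr17:75904859-75904888, minus strand: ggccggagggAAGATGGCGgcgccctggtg
MRPL42, chr12:93467512-93467541, plus strand: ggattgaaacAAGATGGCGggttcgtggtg
MRPL46, chr15:88467361-88467390, minus strand: gggagaacgaAAGATGGCGgcgcccgtaag
MRPL50, chr9:101398576-101398605, minus strand: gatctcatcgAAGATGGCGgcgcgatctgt
MRPS10, chr6:42217833-42217862, minus strand: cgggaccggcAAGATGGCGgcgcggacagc
MRPS18A, chr6:43687763-43687792, minus strand: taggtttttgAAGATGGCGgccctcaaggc
MRPS18B, chr6:30617853-30617882, plus strand: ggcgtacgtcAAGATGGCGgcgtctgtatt
MRPS24, chr7:43869479-43869508, minus strand: cgcttggcccAAGATGGCGgcctccgtgtg
MRPS30, chr5:44808950-44808979, plus strand: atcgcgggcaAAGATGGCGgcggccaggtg
The capitals began 7 bases after the start in MRPL38, 24 in MRPL50 and MRPS18B, and 36 in MRPL22. Within 50 bases of the start, a distance chosen after the matches were seen, lay a YY1 match of 11 of 13 genes (70.5% of all windows with the motif) and an ETS match of 24 of 29 (56.3%). NRF1 matches lay that near in 3 of 13 genes (50.4%) and E-boxes in 0 of 6 (38.6%).

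The calls can be set beside these letters. Among the 13 tested genes with the NRF1 motif 3 rose, namely MRPL30, MRPL37 and MRPS9, and 1 fell, MRPL45. Among the 55 without it 3 rose and 1 fell, and of all genes tested 12.1% rose and 11.1% fell. The difference was not tested. The 4 matches are shown in capitals, in 30 bases each read along the gene, because they stand in genes that moved in opposite directions. In MRPL30, MRPL37 and MRPS9 the motif lies on the opposite strand, with the same 9 letters, and in MRPL45 on the gene's own strand.
MRPL30, chr2:99181059-99181088, plus strand: gatacccaggCGCCTGCGCtctctttctag
MRPL37, chr1:54199971-54200000, plus strand: ctcacctactCGCCTGCGCttcacctcacg
MRPS9, chr2:105038020-105038049, plus strand: gcgccattagCGCCTGCGCcgtctctaggc
MRPL45, chr17:38296969-38296998, plus strand: ttgtctccctGCGCACGCGcggccgtactc
Of the 29 tested genes with the ETS motif 2 rose, MRPL30 and MRPS31, and 0 fell, and of the 39 without it 4 rose and 2 fell, a difference that was not tested. The bases before the MRPS31 start that lie outside annotated exons are shown whole, with the ETS match in capitals near their end, and the MRPL30 match in 30 bases.
MRPS31, chr13:40771191-40771440, minus strand: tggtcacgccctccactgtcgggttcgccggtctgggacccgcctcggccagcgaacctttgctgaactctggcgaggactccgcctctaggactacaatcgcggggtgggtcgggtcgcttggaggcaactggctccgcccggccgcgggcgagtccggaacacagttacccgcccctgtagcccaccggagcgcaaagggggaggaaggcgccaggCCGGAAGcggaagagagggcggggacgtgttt
MRPL30, chr2:99181029-99181058, plus strand: gtctgctgcgCTTCCGGgaagtggtcatgt
The median log2 change from WT to KO was 0.22 for the 13 genes with the NRF1 motif and 0.08 for the 55 without it, and 0.10 for the 29 with the ETS motif and 0.14 for the 39 without. It was -0.09 for the 12 tested genes with the YY1 motif and 0.12 for the 56 without, and 0.25 for the 6 with an E-box and 0.09 for the 62 without. The differences between these medians were not tested. MRPL37, which rose, and MRPL45, which fell, both held an NRF1 match and an E-box.

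The calls rest on few libraries. With 1 library left out, its group holds 1 library, which is assumed to vary like the other group. A gene's own spread then comes from the group still held in 2, and limma draws it toward that of genes of similar level. Without WT 1, MRPS6 alone of the 9 passed, and without WT 2, MRPS6 and MRPL50. Without KO 1 the calls of MRPL30 (adjusted p = 0.0997), MRPL37 (0.0627), MRPL39 (0.0507) and MRPS9 (0.0844) were lost. Without KO 2 those of MRPL37 (0.0542), MRPL39 (0.0619), MRPL45 (0.0555) and MRPS31 (0.0785) were lost. Over the 14 alternatives the adjusted p ran 0.00354 to 0.122 for MRPL10, 0.00215 to 0.153 for MRPL45, 0.0130 to 0.210 for MRPL30, 0.00927 to 0.234 for MRPL37, 0.00940 to 0.212 for MRPL39, 0.0124 to 0.211 for MRPS31 and 0.00878 to 0.200 for MRPS9. The direction of each of the 9 held in all of them. Because their groups do not overlap, leaving out a library or changing the pseudocount or filter could not reverse it. With libraries scaled to the same protein-coding total outside the mitochondrial genome, 1 of the genes rose and 5 fell, their median was -0.01, and 40.2% of all calls were rises, beside 52.1% in the analysis reported.

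**Figure D3:**
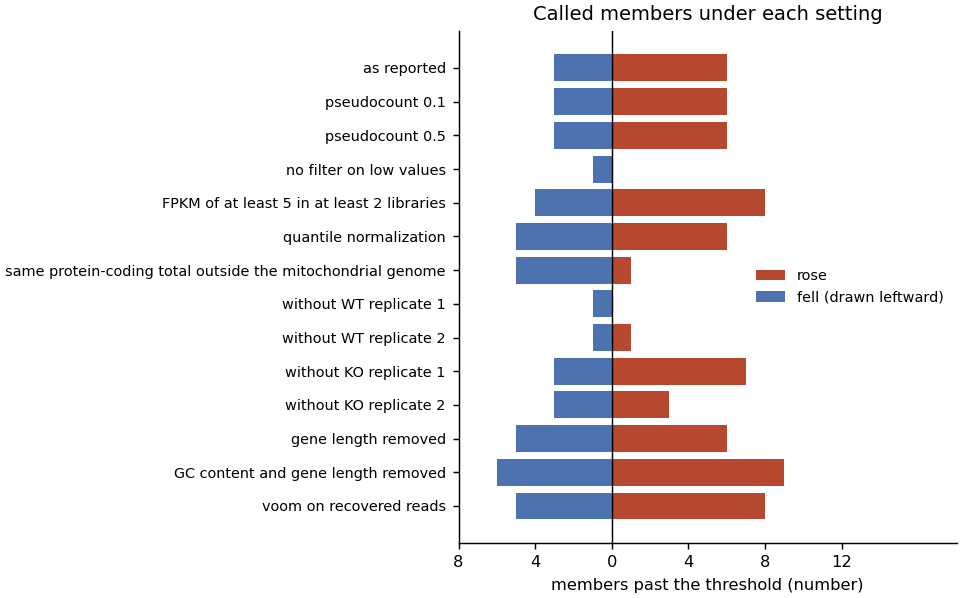
Number of mitochondrial ribosomal protein genes past the threshold (horizontal axis; rises to the right in red, falls drawn to the left in blue) under the analysis reported and 13 of the 14 alternatives (rows), all but the fit with the replicate number as a block. Among those drawn, rises go from 0 without WT 1 and without a filter to 9 with GC content and length removed, and falls from 1 to 6.

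By subunit, 4 of 51 large subunit genes rose and 2 fell, with a median log2 change of 0.14, and 2 of 25 small subunit genes rose and 1 fell, with a median of 0.07. These counts and those below are to be read beside the 12.1% of all genes tested that rose and the 11.1% that fell. Differences between the groups were not tested. Of the 30 large subunit genes with a bacterial homologue, 1 rose and 1 fell (median 0.18). Of the 21 mitochondria-specific ones, which include MRPS30 and MRPS18A despite their names, 3 rose and 1 fell (median 0.10). Of the 15 tested small subunit genes with a bacterial homologue, 1 rose and 1 fell (median 0.08), and of 10 mitochondria-specific ones 1 rose (median 0.02). MRPS18A and MRPS18B were placed as mitochondria-specific, although they are paralogues of MRPS18C, which was placed among those with a bacterial homologue. MRPS36, now known as a component of the alpha-ketoglutarate dehydrogenase complex and placed in none of these groups, stood at 11.4 and 12.6 FPKM in WT 1 and WT 2 and 8.40 and 11.5 FPKM in KO 1 and KO 2 (log2 change -0.25, limma adjusted p = 0.352).

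Of the 3 proteins at the stalk, MRPL10 alone passed. MRPL11, the other protein at the stalk base, stood at 12.2 and 16.9 FPKM in WT 1 and WT 2 and 13.4 and 20.5 FPKM in KO 1 and KO 2. MRPL12, the stalk protein itself, stood at 15.8 and 15.7 FPKM in WT 1 and WT 2 and 13.6 and 28.0 FPKM in KO 1 and KO 2. Neither passed (limma adjusted p = 0.626 and 0.549), and in both the KO libraries lay on either side of a WT library. Without KO 1 the log2 change of MRPL12 was 0.80, and its own spread came from 2 nearly equal WT libraries. Without KO 2 the log2 change of MRPL12 was -0.20.

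Several of these genes are known for inherited defects that impair mitochondrial translation, and those named here did not pass the test. MRPS34 came nearest, 1.83-fold higher (log2 change 0.83, SE 0.23, limma adjusted p = 0.0526), and it passed in 7 of 14 alternatives (range 0.00656 to 0.219). MRPL3 stood at 21.0 and 20.5 FPKM in WT against 28.6 and 27.3 FPKM in KO (log2 change 0.41, SE 0.13, limma adjusted p = 0.0737). MRPL44, which resembles RNase III, stood at 20.6 and 19.1 FPKM in WT against 18.7 and 19.4 FPKM in KO (limma adjusted p = 0.781). MRPS2, MRPS7, MRPS16 and MRPS22 had log2 changes of 0.14, -0.15, -0.13 and 0.02 and limma adjusted p of 0.580, 0.445, 0.605 and 0.937. The 95% confidence interval of the log2 change of MRPS22 ran from -0.33 to 0.37 and that of MRPL44 ran from -0.38 to 0.27. MRPS5, homologous to a protein of the bacterial small subunit, stood at 8.14 and 8.24 FPKM in WT against 7.69 and 9.93 FPKM in KO (limma adjusted p = 0.737). MRPL58, a peptide release factor built into the large subunit, stood at 20.4 and 20.6 FPKM in WT against 21.7 and 27.2 FPKM in KO (log2 change 0.23, SE 0.16, limma adjusted p = 0.327).

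The MRPS18 paralogues, which occupy different sites in the ribosome, did not pass. MRPS18B stood at 28.7 and 29.4 FPKM in WT against 19.2 and 21.4 FPKM in KO (log2 change -0.50, SE 0.14, limma adjusted p = 0.0511) and lay just outside the threshold. It passed in 7 of 14 alternatives (adjusted p 0.0153 to 0.284). MRPS18A stood at 9.64 and 11.7 FPKM in WT against 6.80 and 10.1 FPKM in KO (log2 change -0.32, SE 0.21, limma adjusted p = 0.310), and MRPS18C at 1.18 and 1.59 FPKM in WT against 1.60 and 2.31 FPKM in KO (log2 change 0.30, SE 0.19, limma adjusted p = 0.307). The difference between the paralogues was not tested. MRPS27, a pentatricopeptide repeat protein, stood at 13.6 and 13.2 FPKM in WT against 14.5 and 12.9 FPKM in KO (limma adjusted p = 0.913), and MRPS30 at 7.08 and 5.91 FPKM in WT against 8.55 and 6.25 FPKM in KO (limma adjusted p = 0.587). MRPS12, at the decoding centre, had a log2 change of -0.15 (limma adjusted p = 0.641).

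In most of these genes the KO libraries differed from each other by more than the group means did. KO 2 was above KO 1 in 63 of 77 genes (81.8%), against 48.5% of all genes tested, and WT 2 above WT 1 in 52 (67.5%), against 45.3%. The median log2 difference of KO 2 from KO 1 was 0.34 for these genes and -0.01 for all, and that of WT 2 from WT 1 was 0.12 and -0.03. In 50 genes (64.9%) the KO libraries were further apart than the group means, against 37.6% of all genes. Single libraries vary more than means of 2 libraries, so the 64.9% is to be read only beside the 37.6%. The summed level was 1237 and 1344 FPKM in WT 1 and WT 2 and 1191 and 1588 FPKM in KO 1 and KO 2, so the lowest and the highest sum were both in KO. The sum of the cell division genes was higher in KO 1 than in KO 2 (374 and 331 FPKM), the opposite order. In WT it was higher in WT 2 than in WT 1 (56.3 and 33.2 FPKM), the same order. A link between these orders was not tested.

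Single genes showed the same split. MRPL41, a mitochondria-specific large subunit protein, stood at 32.0 and 39.0 FPKM in WT 1 and WT 2 and 27.7 and 67.7 FPKM in KO 1 and KO 2. MRPL33, the homologue of a small bacterial protein, stood at 18.9 and 32.2 FPKM in WT 1 and WT 2 and 13.9 and 34.6 FPKM in KO 1 and KO 2. MRPL23, a protein at the tunnel exit, stood at 5.86 and 5.27 FPKM in WT 1 and WT 2 and 7.47 and 16.6 FPKM in KO 1 and KO 2. In each of these, which were chosen after their values were seen, KO 2 was more than 2 times KO 1. Without KO 1 the median log2 change of the 77 genes was 0.26, and without KO 2 it was -0.08. The sign of the median change therefore depended on which KO library was kept.

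The difference between the KO libraries went with gene length. The tested genes are short, with a median exon length of 2539 bases against 4347 for all genes tested. In the 14 genes of up to 1500 bases the median difference of KO 2 from KO 1 was 0.55, beside 0.34 for 444 protein-coding genes of that length. It was 0.42 for the 24 genes above that and up to 2500 bases (0.20 for protein-coding genes of that length), 0.29 for the next 22 up to 4000 bases (0.06) and 0.30 for 17 over 4000 bases (-0.09). The correlation of the difference with log10 length was computed over genes, which do not count as replicates. It was Pearson r = -0.39 in the 77 genes and -0.44 in 11504 protein-coding genes. With the trend on length removed, an analysis chosen after seeing the data, the median difference was 0.24, with KO 2 higher in 56 of 77 genes. With trends on GC content and length removed, also chosen after seeing the data, it was 0.27, with KO 2 higher in 64. The cause of the remaining difference was not tested.

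**Figure D4:**
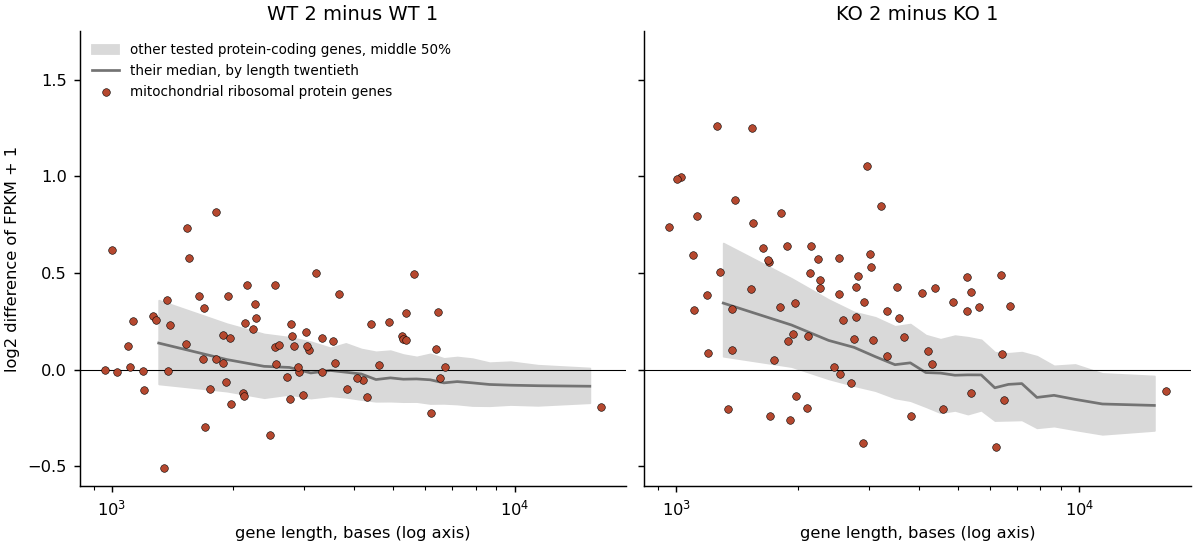
Log2 difference of FPKM + 1 between replicate 2 and replicate 1 (vertical axis) against exon length in bases (log axis), for WT at left and KO at right; red points are the 77 mitochondrial ribosomal protein genes, the line the median and the band the middle 50% of the other tested protein-coding genes in bins of equal number by length. In KO most red points lie above 0 and above the line, with medians of 0.55 in genes of up to 1500 bases and 0.30 over 4000 bases.

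The lists of the mitochondrial ribosome's partners are given by their counts, to be read beside the 12.1% of all genes tested that rose and the 11.1% that fell. Of 5 other proteins of the ribosome that carry other names, 0 passed (median log2 change 0.03). Of these, AURKAIP1 stood at 33.3 and 40.2 FPKM in WT against 27.2 and 51.2 FPKM in KO. CHCHD1 stood at 20.3 and 22.7 FPKM in WT against 19.5 and 29.8 FPKM in KO. Of 27 assembly factors 1 rose and 0 fell (median -0.01). The gene that rose was MTERF3, needed for large subunit assembly, at 6.87 and 5.52 FPKM in WT against 10.4 and 10.3 FPKM in KO (log2 change 0.66, SE 0.15, limma adjusted p = 0.0311). The most abundant were ERAL1, a chaperone of the small ribosomal RNA, at 31.7 and 26.3 FPKM in WT against 24.8 and 22.8 FPKM in KO, and RCC1L at 18.7 and 18.6 FPKM in WT against 17.7 and 21.1 FPKM in KO.

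Of 16 translation factors 0 passed (median 0.03). The most abundant was TUFM, the mitochondrial elongation factor Tu, at 99.7 and 106 FPKM in WT against 95.3 and 114 FPKM in KO, and OXA1L, the insertase that receives new proteins at the membrane, stood at 30.6 and 29.9 FPKM in WT against 35.7 and 35.6 FPKM in KO. Of 17 mitochondrial aminoacyl-tRNA synthetases, which load amino acids onto tRNA, 0 passed (median 0.20). IARS2, for isoleucine, stood at 53.2 and 41.1 FPKM in WT against 71.6 and 56.9 FPKM in KO (limma adjusted p = 0.166). HARS2, for histidine, stood at 11.6 and 11.7 FPKM in WT against 15.1 and 14.8 FPKM in KO (limma adjusted p = 0.112). Of 16 import and chaperone genes 1 rose (median 0.13), HSPE1, the co-chaperonin of HSPD1, at 14.2 and 14.8 FPKM in WT against 21.6 and 25.2 FPKM in KO (log2 change 0.65, SE 0.14, limma adjusted p = 0.0291). HSPD1 stood at 82.1 and 84.2 FPKM in WT against 112 and 102 FPKM in KO and did not pass (limma adjusted p = 0.131). HSPA9, the matrix heat shock protein of the import motor, stood at 67.8 and 62.1 FPKM in WT against 62.3 and 61.7 FPKM in KO (limma adjusted p = 0.776).

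Among 13 tested genes of mitochondrial transcription and its regulators, 1 rose and 1 fell (median log2 change -0.0023). NRF1, which activates many nuclear genes for mitochondrial proteins, stood at 2.83 and 3.36 FPKM in WT against 4.86 and 5.07 FPKM in KO (log2 change 0.55, SE 0.14, limma adjusted p = 0.0431), and both KO libraries were higher. MYC, which drives growth and ribosome production, stood at 37.5 and 27.4 FPKM in WT against 17.3 and 17.2 FPKM in KO (log2 change -0.86, SE 0.18, limma adjusted p = 0.0267), and both KO libraries were lower. Over all 8 lists 3 genes rose and 2 fell, against 0 and 0 without WT 1, 0 and 1 without WT 2, 1 and 0 without KO 1, and 1 and 3 without KO 2.

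Of the 2 ribosomal RNAs of the mitochondrial ribosome, 1 passed. MT-RNR1, the RNA of the small subunit, stood at 2493 and 2616 FPKM in WT against 1458 and 1363 FPKM in KO, and fell 1.81-fold (log2 change -0.86, SE 0.21, limma adjusted p = 0.0383). MT-RNR2, the RNA of the large subunit, stood at 14566 and 19363 FPKM in WT against 15434 and 14248 FPKM in KO, with overlapping groups (log2 change -0.18, SE 0.32, limma adjusted p = 0.722); the difference between both was not tested. Of the 13 proteins that the ribosome makes, 0 passed (median -0.25). MT-CO1, the catalytic subunit of cytochrome oxidase, stood at 16846 and 20437 FPKM in WT against 17002 and 17126 FPKM in KO. MT-CO2 stood at 10948 and 17019 FPKM in WT against 9059 and 13225 FPKM in KO. How RNA was selected before sequencing is not given in the sources used here, and the mitochondrial share of reads was 9.66% and 12.7% in WT and 9.34% and 9.71% in KO.

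**Figure D5:**
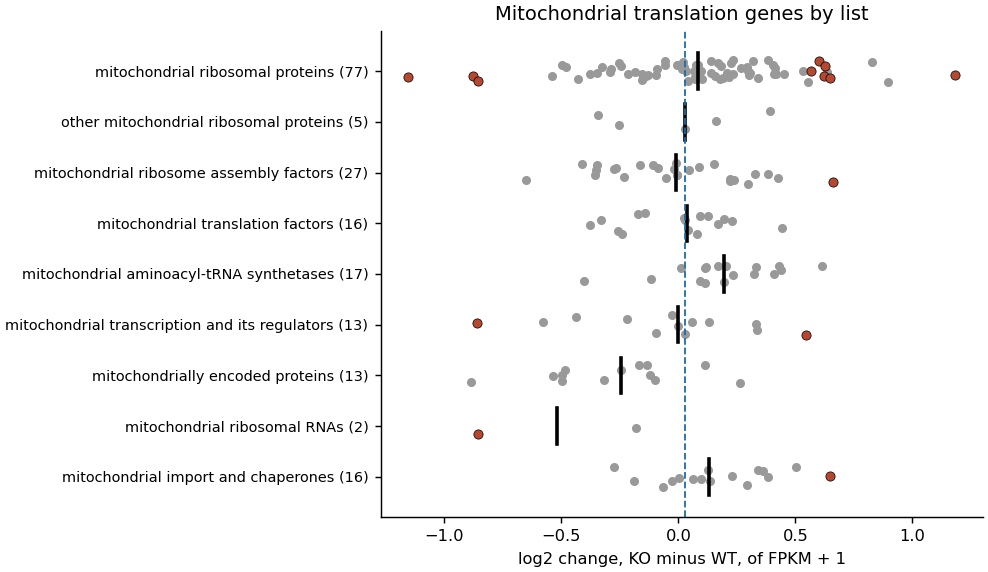
Log2 change from WT to KO of FPKM + 1 (horizontal axis) for each tested gene of the mitochondrial ribosomal proteins and 8 related lists (rows, number tested in brackets); red points passed the threshold, grey points did not, black bars are medians and the dashed line is the median of all 14100 genes tested. Medians lie near the dashed line for most lists, with the mitochondrially encoded proteins at -0.25 and the ribosomal RNAs, 2 genes, at -0.52.

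A last feature the genes share is their neighbourhood. Of the 78, 29 (37.2%) have the start of a protein-coding gene on the opposite strand within 1000 bases. Starts here are the first annotated base of each gene, which can lie far from the RefSeq start used for the promoter windows. For tested protein-coding genes it was 17.9% of 11504. Pairs whose starts cross, so that both genes overlap there, are counted too, such as MRPL51 with NCAPD2 and MRPL43 with TWNK. MRPL46 and MRPS11 are each other's partner, with starts 34 bases apart, and are counted under both. In 26 of the 29 both genes were tested, and in 16 the changes had the same sign. Partners rose in 6 of these and fell in 3, beside 12.9% and 11.1% of protein-coding genes. The partners named here were chosen after their values were seen. SKA3, a kinetochore gene 43 bases from MRPL57, stood at 1.26 and 1.66 FPKM in WT against 7.42 and 6.07 FPKM in KO (log2 change 1.65, SE 0.17, limma adjusted p = 0.00461), while MRPL57, also chosen after its values were seen, stood at 11.2 and 13.1 FPKM in WT against 11.5 and 17.6 FPKM in KO (limma adjusted p = 0.516). NCAPD2, a condensin gene beside MRPL51, stood at 9.53 and 10.4 FPKM in WT against 36.5 and 34.2 FPKM in KO (log2 change 1.73, SE 0.13, limma adjusted p = 0.00342), and TWNK, the mitochondrial DNA helicase gene beside MRPL43, at 15.5 and 16.6 FPKM in WT against 7.27 and 9.14 FPKM in KO (log2 change -0.90, SE 0.16, limma adjusted p = 0.0154).

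MRPL30 and MITD1, whose starts lie 21 bases apart, were the only pair in which both genes passed in the same direction. MITD1, which acts in cell division, stood at 1.72 and 1.46 FPKM in WT against 3.32 and 3.20 FPKM in KO (log2 change 0.72, SE 0.14, limma adjusted p = 0.0224). MRPL50, the other called gene with a tested partner, rose without it: ZNF189, 259 bases away, changed by -0.04 on the log2 scale (SE 0.13) and did not pass (limma adjusted p = 0.834).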

How the data were processed

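RNA from 4 libraries of cells labelled HFL1, 2 WT and 2 KO, was sequenced in pairs on an Illumina instrument, per the labels' protocols. The submitters' processing notes name HISAT2 2.0.5 and the builds hg38 and mm10. The values used are the gene FPKM that the authors deposited, 1 column a library; the tool that counted reads is not given in the sources used here. All 58735 gene coordinates equalled GENCODE annotation on GRCh38. FPKM times gene length came out as whole multiples of 1 read for 100% of values (tolerance 0.01), which gave the depths.

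A gene needed 1 FPKM or more in 2 or more libraries, which 14100 met, and was tested in R 4.3.3 with limma 3.58.1 (intensity-dependent prior, statmod 1.5.0) on log2(FPKM + 1), with a Benjamini-Hochberg adjusted p under 0.05 over all of them. Log2 changes are on that scale, on which those of low genes come out too small. Folds divide mean FPKM. All 4 libraries entered, with residual df 2 and prior df 3.54. The fit was tested on simulated data. The genes and lists were chosen with earlier results of these data known.

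Named genes were, by rule, members past the threshold with groups that do not overlap, the 5 highest and 5 lowest by mean FPKM, members with the roles described (stalk, membrane anchor, peptide release, decoding, inherited disease, paralogues), members under the filter, and of each list those past the threshold or the 2 most abundant. MTERF3 and HSPE1, the only list genes past the threshold in their lists, and genes said so in the text were chosen after their values were seen. Alternatives were other pseudocounts, filters and scalings, a replicate block and each library left out; removal of trends on gene length and GC content and limma voom on the recovered reads were chosen after seeing the data. Promoter windows are RefSeq's, and 9 genes without a window were not searched. The MRPS31 bases printed before the start leave out annotated exons. The stretches of 30 bases around a match were not filtered in this way and can include exon bases.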

Additional observations from a re-analysis of the deposited data

How the results depend on the processing

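CALU and each of the 9 genes past the threshold kept their direction under all 14 alternatives. Their groups do not overlap, so a left-out library, another pseudocount or filter, or the replicate block could not reverse it. Of the mitochondrial ribosomal protein genes 6 rose and 3 fell as reported, of all genes 1711 and 1572, and of the genes of the related lists 3 and 2. Without the filter on low values these were 0 and 1, 183 and 193, and 0 and 0, with 32306 genes tested in place of 14100. With FPKM of at least 5, 8 rose and 4 fell of 67 tested, and 1259 rose and 1041 fell of the 7847 genes tested (13.3% fell, against 11.1% as reported). Quantile normalization gave 5 falls of the ribosomal protein genes and 1 of the lists. Scaling to the same protein-coding total gave 1 rise and 5 falls, and 1 and 4 in the lists. With gene length removed 5 fell, and 4 in the lists; with GC content and length removed 9 rose and 6 fell, and 7 and 7 in the lists; with voom 8 rose and 5 fell, and 5 and 6 in the lists. The last 3 were chosen after seeing the data. Leaving out 1 library gave 0 to 7 rises and 1 to 3 falls, 0 to 1 rises and 0 to 3 falls in the lists, and 505 to 1321 rises and 537 to 1260 falls over all genes. Their median log2 change then ran from -0.08 to 0.26. The cause of these shifts was not tested.

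With the replicate number as a block, 17 rose and 7 fell, 2968 and 2577 of all genes, and 12 and 8 in the lists. The labels share numbers but do not say what a number marks. With 2 pairs the pairing cannot be checked across samples; across genes, the difference of KO 2 from KO 1 correlated with that of WT 2 from WT 1 at Pearson r = 0.41 over 14100 genes and 0.63 over the 77. Depth limits the low genes: MRPS24 had 34 reads in all, and MRPL53 266.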
